A study of Mus musculus with 3 samples.

Results

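The 10 genes described here encode the subunits of the hypoxia-inducible factors (HIFs), the enzymes that mark them for destruction or silence them, the von Hippel-Lindau protein (VHL) and a pair of HIF targets. They were chosen by symbol, and all 10 were found among the 17121 genes of the deposited expression table. The choice was made with earlier results on these samples known, the large difference in Epas1 among them, so the values below describe these genes and support no wider statement. RNA was sequenced from mouse CD8+ T cells, the cytotoxic T cells, purified from spleen and lymph node of wild-type animals and kept for 3 days in culture. Aged TRM cells came from mice of 18 months and were stimulated through CD3 and CD28 with antibodies at 1 µg/ml together with the cytokines IL-15 (20 ng/ml) and TGF-beta (5 ng/ml), a mixture that favours features of tissue-resident memory T cells (TRM). Young TRM cells came from mice of 6 weeks and had the same antibodies and cytokines. Young TCR cells, also from mice of 6 weeks, had the antibodies against CD3 and CD28 alone. Each group was 1 sample, and the labels give neither the number of mice behind it nor the oxygen level of the cultures. The comparisons address what the added cytokines and what age alter in stimulated CD8+ T cells.

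HIFs are pairs of an alpha and a beta subunit that bind DNA together. In oxygenated cells, prolyl hydroxylases modify the alpha subunit, VHL recognises it and a ubiquitin ligase sends it to the proteasome, while an asparaginyl hydroxylase blocks its contact with coactivators. The alpha subunits are therefore governed largely as proteins, which RNA does not measure. In CD8+ T cells, HIF-1alpha also accumulates after antigen receptor stimulation and is known to support glycolysis and cytotoxic function.

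HIFs bind the short core ACGTG or GCGTG in regulatory DNA, and the sequences before the start sites of 3 known hypoxia targets are shown so that their content of this core can be read. They are the 250 bases before the RefSeq start site on GRCm38.p6, written 5′ to 3′ on the strand of the gene, with each match on either strand in capitals. The Vegfa sequence lies at chr17:46032378-46032627, Bnip3 at chr7:138909507-138909756 and Egln3 at chr12:54203875-54204124, all on the minus strand.
Vegfa: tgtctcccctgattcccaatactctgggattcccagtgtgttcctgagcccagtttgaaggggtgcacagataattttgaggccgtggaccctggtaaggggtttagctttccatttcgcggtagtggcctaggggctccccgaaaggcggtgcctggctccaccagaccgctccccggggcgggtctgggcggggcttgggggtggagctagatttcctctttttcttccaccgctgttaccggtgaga
Bnip3: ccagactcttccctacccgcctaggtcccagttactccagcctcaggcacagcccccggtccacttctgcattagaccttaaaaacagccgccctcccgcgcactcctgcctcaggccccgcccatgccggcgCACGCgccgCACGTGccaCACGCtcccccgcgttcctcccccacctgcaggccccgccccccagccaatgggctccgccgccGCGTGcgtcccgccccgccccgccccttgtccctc
Egln3: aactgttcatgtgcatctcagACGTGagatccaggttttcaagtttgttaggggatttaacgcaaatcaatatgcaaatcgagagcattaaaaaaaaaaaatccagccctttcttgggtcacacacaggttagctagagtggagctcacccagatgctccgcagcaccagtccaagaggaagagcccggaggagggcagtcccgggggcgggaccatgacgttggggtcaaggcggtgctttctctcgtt

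The Vegfa sequence held no match, the Bnip3 sequence 5 and the Egln3 sequence 1. In Bnip3, a match on each strand overlapped within CACGTG, so that its 5 matches form 4 runs of capitals. Windows were found for 9 of the 10 genes, Epas1 being the other, and made 11 windows because Egln2 and Vegfa each have 2 start sites. At least 1 match stood in 8 of the 11 windows, against 38.6% of all 32851 windows in the RefSeq table. These start sites were rich in CG pairs, with a median of 12 per window against 6 over the table. Of the 9 member windows with at least 10 CG pairs, 6 held a match, against 64.2% of the 12417 such windows in the table. The second Vegfa start site had 2 matches, and the windows of Hif1an and Vhl had none. For that Vegfa start site and the Hif1a start site, the bases after the start were not found in a GENCODE transcript of the gene. A match describes these letters only and shows no binding, and bases farther from the start sites were not searched.

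**Figure D1:**
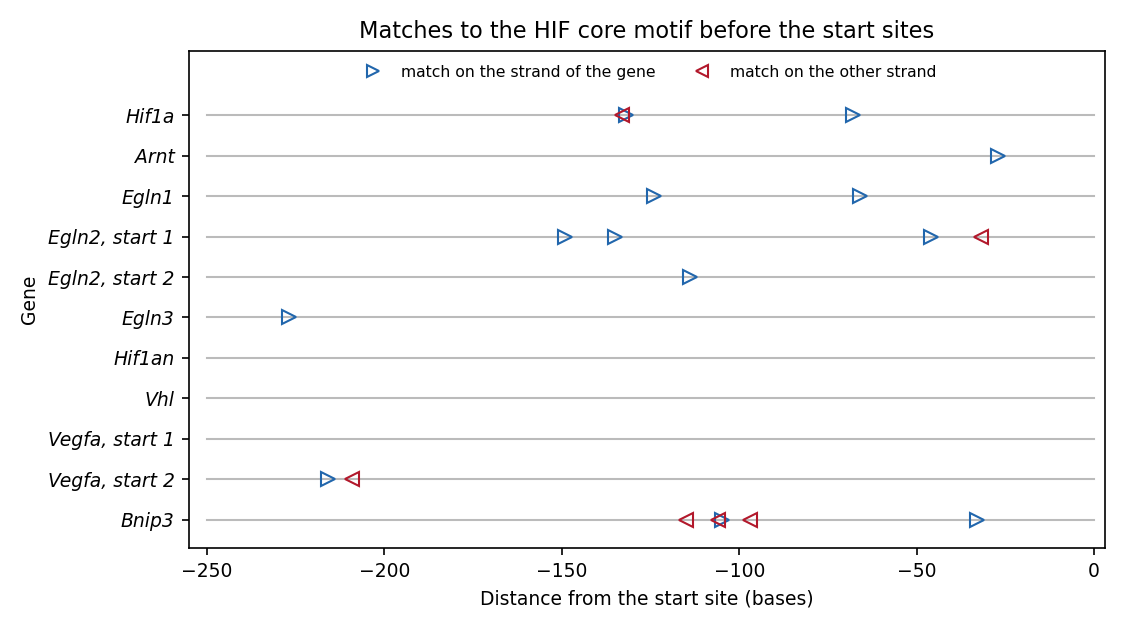
Positions of the HIF core motif in the 250 bases before each RefSeq start site of 9 genes, with distance from the start site in bases on the horizontal axis and genes down the page. Right-pointing triangles are matches on the strand of the gene and left-pointing triangles matches on the other strand. Bnip3 has 5 matches and the first Vegfa start site has none.

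Levels are given as CPM, the reads of a gene relative to its library's total after scaling by the trimmed mean of M-values (TMM), except where TPM, the deposited value per transcript length, is named. The samples had 40385477 reads in aged TRM, 36021887 in young TRM and 39915663 in young TCR. Each sample has 2 numbered columns, which the labels leave unexplained, and their reads were added up. The median gene of at least 50 reads differed between the columns by 1.05-fold in each sample. The words rose and fell are kept for genes with a ratio of 2-fold or more after 1 CPM was added to each level, and with a 95% counting interval that excluded 1. With 1 sample a group no difference could be set against the spread between animals or cultures, so no p-value is given, and the intervals cover counting error only. Purity was checked on marker lists. All 9 CD8 T cell markers were above 1 CPM in every sample, with Cd8a at 1632 CPM in aged TRM, 1822 in young TRM and 747 in young TCR. The endothelial genes Cdh5, Tek, Tie1, Kdr and Flt1 were each at or below 0.247 CPM. Of the other endothelial markers, Plvap was at or below 0.426 CPM and Vwf reached 1.46 CPM in young TCR. Pecam1, which T cells also express, reached 76.5 CPM there.

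Per transcript length, the same gene was highest in all 3 samples. Bnip3 stood at 290 TPM in aged TRM, 263 in young TRM and 285 in young TCR, and Hif1a came second with 220 TPM in aged TRM, 182 in young TRM and 208 in young TCR. Egln1 and Egln3 followed, between 113 and 137 TPM. Their order changed with the sample, since Egln1 was the higher in aged TRM (127 and 113 TPM) and Egln3 in young TCR (126 and 120 TPM), and in young TRM their columns overlapped. Egln2, Arnt, Vhl and Hif1an formed a lower tier, between 17.7 and 39.0 TPM. Vegfa stood above that tier in both TRM samples. In young TCR its columns of 38.6 and 39.2 TPM overlapped those of Epas1, at 37.8 and 38.9, and those of Egln2, at 37.9 and 40. Epas1 was the lowest of the 10 in both TRM samples. These levels describe the cells as a whole: in bulk RNA, fewer cells that express a gene and less RNA per cell cannot be told apart.

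**Figure D2:**
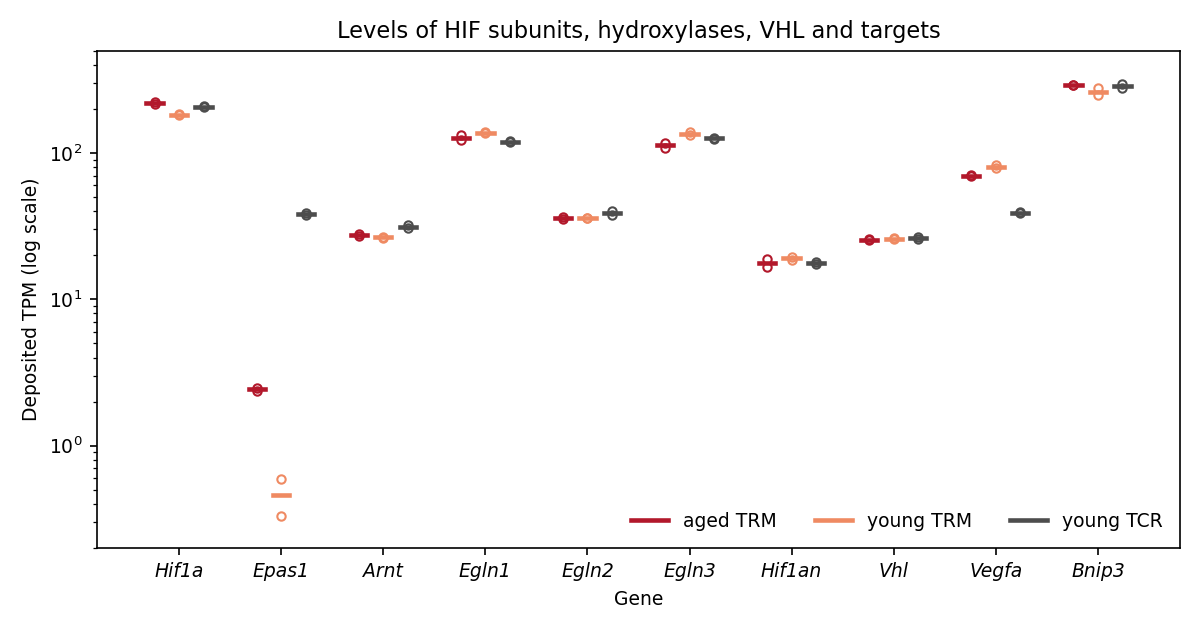
Deposited TPM, on a log scale, of the 10 genes in aged TRM, young TRM and young TCR cells, 1 sample each. Short horizontal marks are the mean of the 2 numbered columns of a sample and open circles the columns, which were not treated as replicates. Epas1 lies at 2.42 TPM in aged TRM, 0.46 in young TRM and 38.4 in young TCR, and Vegfa is higher in both TRM samples than in young TCR.

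Among the HIF alpha subunits, the gene of HIF-2alpha was nearly silent in young TRM cells while that of HIF-1alpha stayed abundant. Epas1 (gene ID 13819, chromosome 17, 86753864 to 86833410) encodes HIF-2alpha, a subunit best known from endothelial cells and from the control of erythropoietin. It was counted in 46 reads in young TRM and 4250 in young TCR, which is 1.31 CPM (interval 0.956 to 1.74) and 105 CPM (102 to 108). The columns read 0.89 and 1.64 CPM in young TRM, and 104 and 105 CPM in young TCR, so the samples lay far apart on every column. Epas1 fell 80.3-fold in young TRM (60.1 to 110). Its log2 ratio of -5.52 was the lowest of the 11588 genes tested.

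In aged TRM cells Epas1 was counted in 262 reads, 6.44 CPM (5.69 to 7.27), with columns of 6.61 and 6.28 CPM, none of which reached down to the young TRM columns. It rose in aged TRM, 4.94-fold over young TRM (3.60 to 6.91, log2 ratio 1.69), the 69th highest log2 ratio of 11575 genes tested. This call ended with a pseudocount of 5 CPM (log2 ratio 0.86), and Epas1 was below the limit when genes needed 10 CPM. Aged TRM still had 16.3-fold less Epas1 than young TCR (14.4 to 18.5), a difference that combines age and cytokines.

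Hif1a (gene ID 15251, chromosome 12, 73901324 to 73947554), which encodes HIF-1alpha, had 472 CPM in aged TRM, 404 in young TRM and 458 in young TCR. It passed 2-fold in neither comparison, with ratios of 0.882 for young TRM over young TCR (0.863 to 0.902) and 1.17 for aged TRM over young TRM (1.14 to 1.19). An annotated antisense transcript and another coding gene overlap Hif1a, and the sources used here do not say whether strand was used in counting. Annotated genes also overlap Epas1, Arnt and Egln2. Set against Hif1a per transcript length, Epas1 made up 1.09% of the summed TPM of both genes in aged TRM, 0.252% in young TRM and 15.6% in young TCR. In both TRM samples Hif1a made up nearly all of that sum.

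Arnt (gene ID 11863, chromosome 3, 95434367 to 95497240) encodes HIF-1beta, the shared partner of both alpha subunits and of the aryl hydrocarbon receptor. It had 58.6 CPM in aged TRM, 59.6 in young TRM and 69.3 in young TCR, with ratios of 0.982 (0.926 to 1.04) for age and 0.861 (0.813 to 0.911) for the cytokines. Per length, Hif1a exceeded Arnt 7.99-fold in aged TRM, 6.85-fold in young TRM and 6.62-fold in young TCR. Epas1 was at 0.088 of the Arnt TPM in aged TRM, 0.0173 in young TRM and 1.22 in young TCR. Epas1 thus exceeded Arnt per length in young TCR and lay far below it in both TRM samples.

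The remaining relatives gave 1 further call. In the list of 8 HIF subunits and related bHLH-PAS factors, 7 were tested. In young TRM against young TCR 2 of them were called, where 7.78% of all genes tested were. Besides Epas1, Hif3a, whose products include inhibitors of the other alpha subunits, fell, with 1.31 CPM in young TRM and 5.57 CPM in young TCR. That call ended with a pseudocount of 5 CPM (-0.75) and with the deposited TPM (-0.92). In the age comparison Epas1 alone of the list was called, where 3.4% of all genes tested were. Hif3a had 0.664 CPM in aged TRM and 1.31 CPM in young TRM. The clock factors Arntl, Npas2 and Clock had log2 ratios of 0.42, 0.44 and 0.64 in young TRM over young TCR and of -0.22, -0.08 and -0.10 in aged TRM over young TRM. Median log2 ratios of the list were -0.18 and -0.08, against 0.02 and -0.01 over all genes tested.

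The hydroxylases showed no 2-fold difference in either comparison. Egln1 (gene ID 112405, chromosome 8, 124908587 to 124949254) encodes PHD2, the main prolyl hydroxylase of HIF-1alpha in most tissues. It had 221 CPM in aged TRM, 248 in young TRM and 214 in young TCR. Its ratios were 1.16 for young TRM over young TCR (1.12 to 1.19) and 0.893 for aged TRM over young TRM (0.867 to 0.920). Egln3 (gene ID 112407, chromosome 12, 54178981 to 54203874) encodes PHD3, which is itself induced by hypoxia, and had 149 CPM in aged TRM, 185 in young TRM and 171 in young TCR. Its age ratio of 0.805 (0.777 to 0.833) was the farthest from 1 among the genes other than Epas1, and its columns were 154 and 143 CPM in aged TRM against 189 and 182 CPM in young TRM, without overlap.

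Egln2 (gene ID 112406, chromosome 7, 27158658 to 27166802), for PHD1, had 36.6 CPM in aged TRM, 37.5 in young TRM and 40.5 in young TCR. Its age ratio was 0.976 (0.906 to 1.05), an interval that holds 1. Together the prolyl hydroxylase genes summed to 276 TPM in aged TRM, 309 in young TRM and 285 in young TCR. Egln1 took 46.0%, 44.5% and 42.0% of that sum in aged TRM, young TRM and young TCR, and Egln2 13.1%, 11.6% and 13.7%. Hif1an (gene ID 319594, chromosome 19, 44562854 to 44576274) encodes the asparaginyl hydroxylase FIH, and had 54.7 CPM in aged TRM, 61.1 in young TRM and 56.1 in young TCR. Its ratios were 1.09 for the cytokines (1.03 to 1.16) and 0.896 for age (0.844 to 0.951).

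Vhl (gene ID 22346, chromosome 6, 113623994 to 113631634), the substrate receptor of the ligase, varied least of the 10. It had 34.7 CPM in aged TRM, 36.4 in young TRM and 36.4 in young TCR, and its intervals held 1 in both comparisons (0.927 to 1.08 for the cytokines and 0.882 to 1.03 for age). None of the 7 genes of the VHL ligase was called in either comparison, where 7.78% and 3.4% of all genes tested were. Their log2 ratios ran from -0.29 to 0.10 in young TRM over young TCR and from -0.10 to 0.32 in aged TRM over young TRM. Elob, the elongin subunit with the highest TPM of that list, had 370 TPM in aged TRM, 341 in young TRM and 380 in young TCR.

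Vegfa, Bnip3 and Egln3 are the members treated here as HIF targets, though others may be targets too, and of these 3 Vegfa rose with the cytokines. Vegfa (gene ID 22339, chromosome 17, 46016993 to 46032377) encodes the angiogenic factor VEGF-A, a classical hypoxia target. It had 111 CPM in aged TRM, 133 in young TRM and 63.1 in young TCR. Columns were 129 and 137 CPM in young TRM and 62.8 and 63.4 CPM in young TCR, so the columns did not overlap. Vegfa rose 2.11-fold in young TRM (2.01 to 2.22, log2 ratio 1.07), just past the limit, and with column 1 of each sample alone the log2 ratio was 0.996 and the call ended. In the age comparison its ratio was 0.833 (0.800 to 0.868), which passed no 2-fold limit. Aged TRM kept 1.76 times the young TCR level (1.68 to 1.85).

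Bnip3 (gene ID 12176, chromosome 7, 138890836 to 138909506) encodes a mitochondrial receptor for mitophagy that is strongly hypoxia-inducible in many cells. It had 249 CPM in aged TRM, 234 in young TRM and 251 in young TCR, with ratios of 0.935 (0.908 to 0.963) for the cytokines and 1.06 (1.03 to 1.09) for age. Its young TRM columns of 220 and 246 CPM reached into the range of the young TCR columns, 245 to 257 CPM. The Bnip3 upstream sequence printed above is the one with most core matches of the 3, and that of Vegfa has none. Annotated antisense and pseudogene transcripts overlap Bnip3.

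Counted together, 1 of the 10 genes rose and 1 fell in young TRM against young TCR, where 4.18% of all genes tested rose and 3.6% fell, together 7.78%. Both were also past 2-fold in all 4 pairings of the columns, as were 6.23% of all genes. In aged TRM against young TRM 1 of the 10 rose, Epas1, and 0 fell, where 2.25% of all genes rose and 1.15% fell, together 3.4%. Epas1 was past 2-fold in all 4 pairings there too, as were 2.41% of all genes. All 10 passed the limit of 1 CPM in both comparisons. The 8 members other than Epas1 and Vegfa had ratios between 0.861 and 1.16 for the cytokines and between 0.805 and 1.17 for age. Counting intervals excluded 1 for 7 of these 8 in the first comparison and 5 in the second, as they did for 72.2% and 64.2% of all genes tested, so small differences beyond counting error were common in these samples. Medians over the 10 genes were -0.05 in both comparisons, against 0.02 and -0.01 over all genes.

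**Figure D3:**
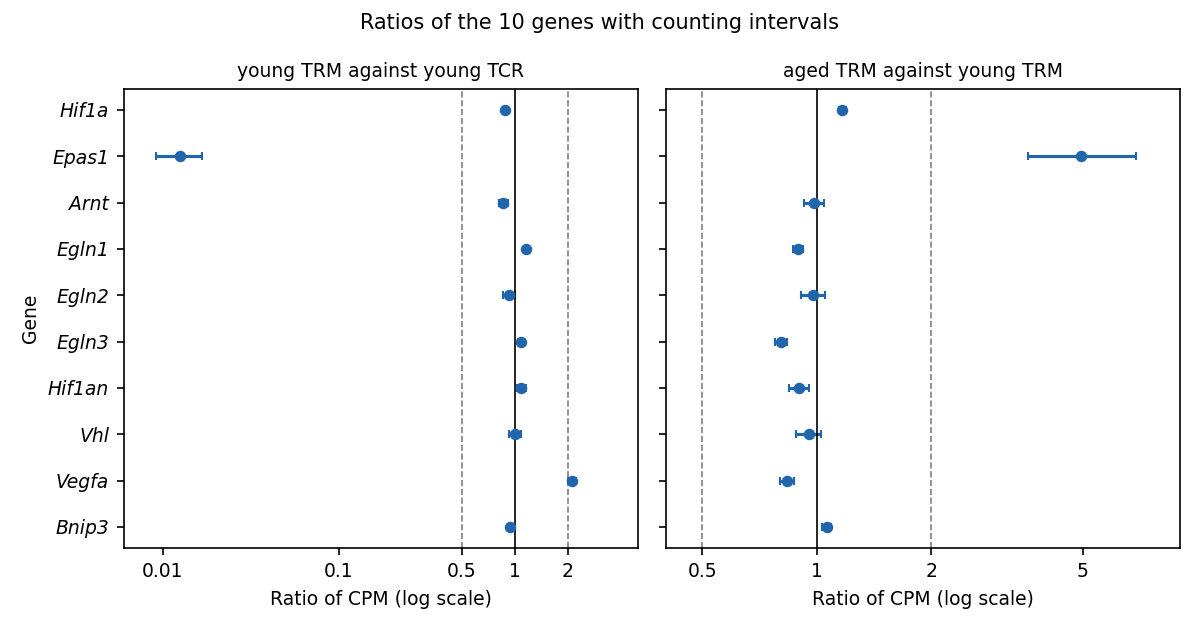
Ratio of CPM, on a log scale, of the 10 genes for young TRM over young TCR (left) and aged TRM over young TRM (right), with bars for the 95% counting interval. The solid line marks a ratio of 1 and dashed lines 2-fold. Epas1 lies at 0.0125 on the left and 4.94 on the right, and Vegfa at 2.11 on the left. Both panels use the same young TRM sample.

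Other known hypoxia targets were mostly below 2-fold. Of 33 tested targets outside glycolysis, 1 rose and 4 fell in young TRM, together 15.2% against 7.78% of all genes tested. Kdm3a, a histone H3K9 demethylase, rose, with 355 CPM in young TRM and 163 in young TCR (2.17-fold, 2.11 to 2.24). Among those that fell was Bhlhe41, a circadian repressor, which fell to 0.199 CPM in young TRM, against 4.46 in young TCR. The collagen prolyl hydroxylase gene P4ha2 fell, with 7.32 CPM in young TRM and 18.8 in young TCR, as did Hmox1, the heme-degrading oxygenase, with 6.50 CPM in young TRM and 16.03 in young TCR. The calls of Bhlhe41, P4ha2 and Hmox1 ended with a pseudocount of 5 CPM (-0.86, -0.95 and -0.87). The median of the list was -0.16.

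In aged TRM against young TRM, 1 of these 33 targets rose and 1 fell, together 6.06% against 3.4% of all genes tested. Stc2, which encodes the secreted glycoprotein stanniocalcin 2, rose to 52.6 CPM in aged TRM, against 20.5 in young TRM (2.56-fold, 2.35 to 2.79). Zfp395, a zinc finger gene, fell to 32.2 CPM in aged TRM, against 70.1 in young TRM, and stood at 71.7 CPM in young TCR. Kdm3a had 234 CPM in aged TRM and 355 in young TRM (log2 ratio -0.60). The median of the list was 0.06.

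Glycolytic targets gave a single call, 4.76% of the list in young TRM against young TCR, where 7.78% of all genes tested were called. Of 21 tested, 1 fell, Slc2a3, the glucose transporter GLUT3, in young TRM, to 247 CPM against 695 in young TCR, and it had 277 CPM in aged TRM. The list's median was -0.29, with 16 of 21 below 0, and the medians over the alternative settings ran from -0.34 to -0.24. Pdk1, a kinase that restrains entry of pyruvate into the mitochondrion, had 174 CPM in aged TRM, 234 in young TRM and 279 in young TCR, and Ldha, lactate dehydrogenase A, 2211 CPM in aged TRM, 2071 in young TRM and 2829 in young TCR. In the age comparison the median was 0.08 and none of the 21 was called, where 3.4% of all genes tested were. Gapdh, the highest, had 5570 CPM in aged TRM and 4827 in young TRM.

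Genes that HIF-2alpha is known to prefer in other cell types were mostly below 1 CPM. Of 19 listed, 18 were in the table, the erythropoietin gene being the other, and 5 were tested in each comparison. In young TRM against young TCR 1 of the 5, a gene not named here, fell and 0 rose, and 4 had log2 ratios below 0. Of all genes tested, 3.6% fell and 4.18% rose there. With age 1 of the 5 rose and 0 fell, where 2.25% of all genes rose and 1.15% fell. Ccnd1, which encodes cyclin D1, had 7.13 CPM in aged TRM, 1.96 in young TRM and 0.715 in young TCR. It rose with age 3.64-fold (2.79 to 4.81), a call that ended with a pseudocount of 5 CPM (0.80), whereas its log2 ratio of 0.79 for the cytokines passed no limit. Angptl4, a secreted regulator of lipoprotein lipase, had 7.31 CPM in aged TRM, 5.56 in young TRM and 8.88 in young TCR. Cited2, which competes with HIF for coactivators, had 15.9 CPM in aged TRM, 17.1 in young TRM and 26.8 in young TCR. Slc11a2, an iron transporter, had 32.3 CPM in aged TRM, 34.5 in young TRM and 40.8 in young TCR. With 5 tested genes the medians of -0.59 and 0.16 rest on few values.

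Other oxygenases share the cosubstrate 2-oxoglutarate with the HIF hydroxylases. Their list also holds P4hb, the beta subunit of collagen prolyl hydroxylase and not itself such an oxygenase, and Ado, which does not use 2-oxoglutarate. Of 24 tested, 2 rose in young TRM and 1, P4ha2, fell, together 12.5% against 7.78% of all genes tested. Besides Kdm3a, Kdm6b, an H3K27 demethylase, rose to 122 CPM in young TRM, against 33.8 in young TCR (3.61-fold, 3.40 to 3.84), and it had 80.1 CPM in aged TRM. Asph, the aspartyl hydroxylase, had 2.95 CPM in aged TRM, 1.90 in young TRM and 3.45 in young TCR. None of the 24 was called with age, where 3.4% of all genes tested were. P4hb, the highest of the list, had 363 TPM in aged TRM and 284 TPM in young TRM. Medians were 0.09 and -0.10.

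Among 19 tested regulators of HIF protein level or activity, 0 were called with the cytokines, where 7.78% of all genes tested were. The chaperone gene Hsp90ab1, the highest of the list, had 3372 CPM in aged TRM, 3045 in young TRM and 3804 in young TCR. The coactivator genes Ep300 and Crebbp had log2 ratios of 0.14 and 0.38 for the cytokines and -0.26 and -0.30 for age. With age 1 of the 19 rose, where 2.25% of all genes tested did. This was Inhba, which encodes a chain of activin A, a TGF-beta family ligand, and not a component of HIF degradation. It had 7.87 CPM in aged TRM, 0.710 in young TRM and 2.15 in young TCR.

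Of 9 relatives and receptors of VEGF-A, 3 were tested and 0 called in either comparison, where 7.78% and 3.4% of all genes tested were. Vegfb had 10.8 CPM in aged TRM, 11.9 in young TRM and 12.5 in young TCR, and the co-receptor gene Nrp1 had 14.98 CPM in aged TRM, 25.2 in young TRM and 26.2 in young TCR. The receptor genes Flt1, Kdr and Flt4 lay between 0.0738 and 0.482 CPM. Among 16 tested relatives of BNIP3 and mitophagy genes, 0 were called in either comparison, beside the same shares of all genes, with medians of 0.07 and 0.00. Bnip3l, the closest relative of Bnip3, had 281 CPM in aged TRM, 304 in young TRM and 324 in young TCR, and Phb2, the highest of the list per length, had 313 TPM in aged TRM, 259 in young TRM and 338 in young TCR. Pink1, a mitophagy kinase, had 27.6 CPM in aged TRM, 43.7 in young TRM and 43.8 in young TCR.

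**Figure D4:**
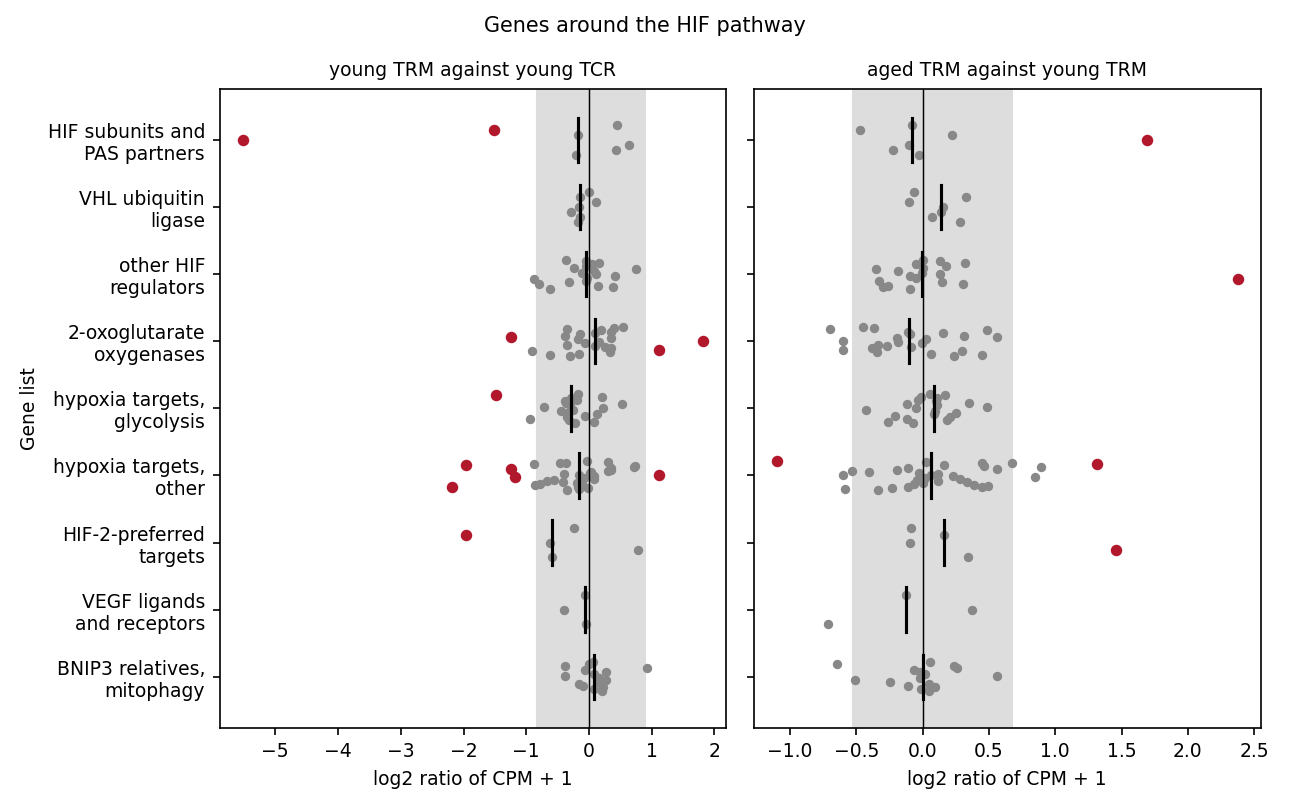
Log2 ratio of CPM plus 1 of each tested gene in 9 lists around the HIF pathway, for young TRM over young TCR (left) and aged TRM over young TRM (right). Red points are called genes, grey points the others, black ticks list medians, and the grey band holds the middle 90% of all genes tested. Epas1 is the lowest point on the left at -5.52. Some genes stand in more than 1 list.

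Genes described as HIF-1 targets in cytotoxic T cells went in several directions. In young TRM 4 of 17 fell, the granule genes Gzmb and Prf1, Havcr2, which encodes TIM-3, and Slc2a3, and 1 rose, Klf2, a factor of naive and recirculating T cells. Together these were 29.4% of the list, against 7.78% of all genes tested. Gzmb had 2807 CPM in aged TRM, 1251 in young TRM and 4393 in young TCR, and Klf2 had 43.8 CPM in aged TRM, 151 in young TRM and 35.0 in young TCR. In aged TRM against young TRM 3 rose (Gzmb, Ifng and Havcr2) and 3 fell, among them Klf2 and S1pr1, a receptor gene of lymphoid egress. Together these were 35.3% of the list, against 3.4% of all genes tested. Havcr2 had 34.3 CPM in aged TRM, 8.03 in young TRM and 61.8 in young TCR, the same order of samples as Epas1. The list was chosen with such differences known, and Hif1a itself passed 2-fold in neither comparison.

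Likeness of pattern was measured over the 3 samples as the distance between the pairs of log2 ratios, among 8983 coding genes of at least 10 CPM in 1 sample or more. The gene nearest to Epas1 was Tnfrsf8, the activation receptor CD30, at a distance of 1.34, with 17.2 CPM in aged TRM, 1.36 in young TRM and 77.6 in young TCR. Next came Adam8, a metalloprotease, at 1.58 and Tg, thyroglobulin, at 1.89, then the serpin gene Serpinb6b at 2.13 and Pou2af1, a coactivator of B cells, at 2.25. Distances from Vegfa were far smaller. Pacsin2, which encodes a membrane-bending protein, lay at 0.0235 and had 95.4 CPM in aged TRM, 113 in young TRM and 53.5 in young TCR, followed by Nlrc3 at 0.0347, Susd6 at 0.0423, Notch1 at 0.0513 and Tmem50b at 0.0523. With 3 samples many genes can share a pattern of small ratios.

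**Figure D5:**
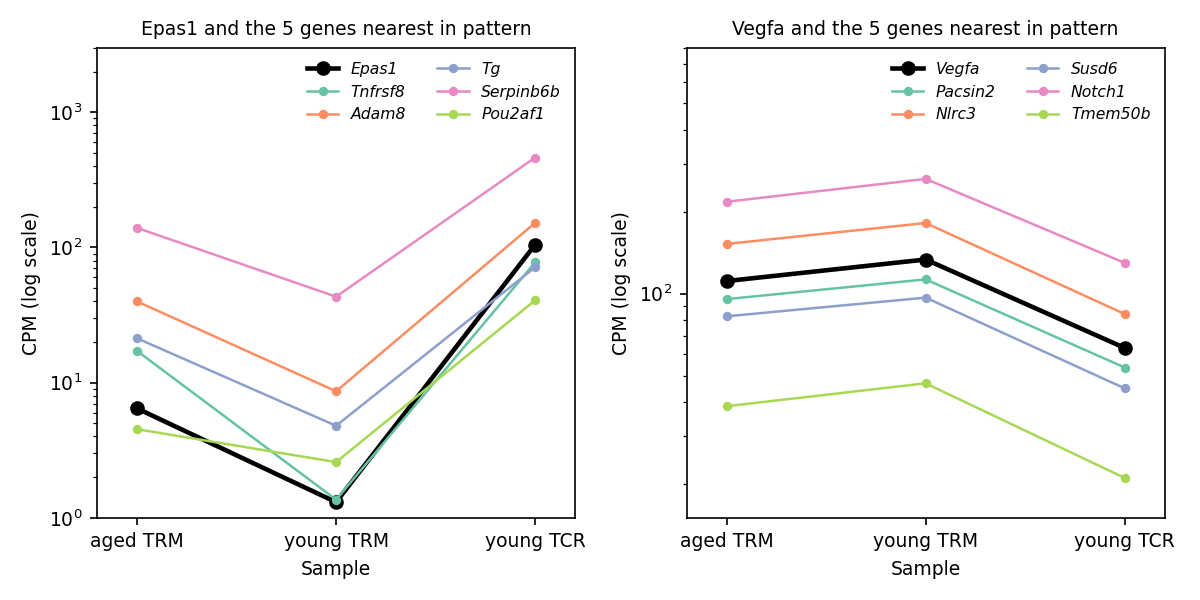
CPM, on a log scale, in aged TRM, young TRM and young TCR cells, for Epas1 with its 5 nearest genes by pattern (left) and Vegfa with its 5 nearest (right). Lines join the values of a gene and imply no order of the samples. The Epas1 line runs through 6.44, 1.31 and 105 CPM, and the Vegfa line through 111, 133 and 63.1 CPM.

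Markers of B cells mostly moved with Epas1. The 9 B and plasma cell markers summed to 34.3 TPM in aged TRM, 26.4 in young TRM and 60.7 in young TCR. Of these, 6 of 7 tested fell in young TRM, where 3.6% of all genes tested did. In aged TRM 3 of 6 tested rose, where 2.25% of all genes did. Cd79b, the highest of the 9 in each sample, had 11.7 CPM in aged TRM, 12.9 in young TRM and 15.5 in young TCR. Its log2 ratios of -0.25 for the cytokines and -0.12 for age were not called, the second opposite in sign to that of Epas1. None of the 9 was at 0 reads in any sample. In young TCR the 9 markers summed to 50.4 CPM, against 105 CPM for Epas1 alone, and with a pseudocount of 5 CPM 1 of them still fell in young TRM. The part of B cells in the Epas1 difference was not tested. NK cell markers moved with Vegfa, as all 4 tested rose in young TRM, where 4.18% of all genes tested did. They summed to 21.4 TPM in aged TRM, 26.1 in young TRM and 5.60 in young TCR, and their part was not tested. With a pseudocount of 5 CPM 0 of these 4 rose. The 4 CD4 T cell markers summed to 18.2 TPM in aged TRM, 29.9 in young TRM and 18.2 in young TCR. That sum was highest in young TRM, as Vegfa was, but 17.4 TPM of it there was Foxp3. Cd4 was nearly level over the samples, and Zbtb7b and Cd40lg were lowest in young TRM, opposite to Vegfa. Of the 3 tested, Foxp3, a factor of regulatory T cells, rose in young TRM, with 3.71 CPM in aged TRM, 33.6 in young TRM and 1.95 in young TCR, and fell in aged TRM against young TRM. Zbtb7b, a factor of the CD4 lineage, fell in young TRM, with 8.03 CPM in young TRM and 18.1 in young TCR, a call that ended with a pseudocount of 5 CPM (-0.83) and with the deposited TPM. Cd4 itself had 11.6 CPM in aged TRM, 12.4 in young TRM and 10.5 in young TCR. The part of CD4 T cells in the Vegfa difference was not tested. The 8 endothelial markers in the table summed to 33.6 TPM in aged TRM, 43.2 in young TRM and 47.3 in young TCR, nearly all of it Pecam1, which T cells also express, and the defining gene Cdh5 was at 0 reads in young TCR. Vwf had 0.615 CPM in aged TRM, 0.312 in young TRM and 1.46 in young TCR, the same order of samples as Epas1. Without the pseudocount Vwf was 4.66-fold lower in young TRM than in young TCR, but its log2 ratio of -0.90 was not called. The part of endothelial cells in the Epas1 difference was not tested. Myeloid and dendritic cell markers summed to 27.2, 34.2 and 27.2 TPM in aged TRM, young TRM and young TCR. That sum too was highest in young TRM, as Vegfa was. Of 6 tested, 1 rose and 1 fell in young TRM, where 4.18% of all genes tested rose and 3.6% fell. Mpeg1 rose, with 28.7 CPM in young TRM and 4.22 in young TCR. Itgax fell, with 3.55 CPM in young TRM and 8.63 in young TCR, a call that ended under 2 of 8 alternatives. None of the 6 was called with age, where 3.4% of all genes tested were. Red cell and platelet markers summed to 37.3 TPM in aged TRM, 15 in young TRM and 24.99 in young TCR. Stromal markers summed to 4.69 TPM in aged TRM, 1.24 in young TRM and 1.66 in young TCR. Both sums were lowest in young TRM, as Epas1 was, but highest in aged TRM, as Epas1 was not. Single red cell and platelet markers differed. The globin gene Hbb-bt rose in young TRM, with 6.15 CPM in aged TRM, 2.50 in young TRM and 0.740 in young TCR, whereas Pf4 and Ppbp fell in young TRM. The Hbb-bt call ended under 3 of 8 alternatives and the Pf4 call under 1. The part of these cells was not tested.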

How the data were processed

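Total RNA was isolated on spin columns, per the labels' protocols, and standard Illumina libraries of total RNA were sequenced on a HiSeq instrument. The submitters' processing notes name Bowtie and the assembly GRCm38. The sources used here give no counting program, annotation or handling of strand and shared reads. The authors deposited, per the file headers, read counts, which are estimated counts that need not be whole, and TPM values. A further 24 value columns (FPKM, normalized counts and averages) were not used.

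Estimated counts were rounded and the 2 columns of each sample summed (columns held 16084855 to 20245228 reads). CPM was scaled by TMM factors of edgeR 4.0.16 in R 4.3.3 (1.01 in aged TRM, 0.978 in young TRM and 1.02 in young TCR). Ratios and 95% Clopper-Pearson intervals of the split of reads, and Poisson intervals of single levels, came from scipy 1.17.1, with pandas 2.3.3 and numpy 2.4.6, under Python 3.11.15. Genes were tested if they reached 1 CPM in 1 of the samples compared. Log2 ratios hold a pseudocount of 1 CPM and printed folds do not. The calling rule was tested on counts simulated with counting error only. In each comparison it called all 50 genes raised 3-fold, all 50 lowered 3-fold and 0 unchanged genes. The simulated counts held no spread between animals or cultures, so the outcome says nothing about that spread. The genes raised or lowered all lay above the Epas1 level pooled over both TRM samples. Reads are not independent molecules. Of the gene IDs, 17071 matched RefSeq on GRCm38.p6, which gave positions and sequences, and 23 symbols turned into dates were restored. Overlapping genes came from GENCODE.

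The members and the gene lists were chosen with earlier results of these data known. Text names all 10 members. Of each list it names every called gene, except some that are not reported here, or the gene with the highest TPM if none was called, and for Epas1 and the member with the next largest range the 5 genes nearest in pattern. Other genes named beside them, such as Arntl, Npas2, Clock, Vegfb, Flt1, Kdr, Flt4, Pdk1, Ldha, Asph, Ep300, Crebbp, Nrp1, Bnip3l, Pink1, Angptl4, Cited2 and Slc11a2, were chosen after their values were seen.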

Additional observations from a re-analysis of the deposited data

How the results depend on the processing

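Each of 9 alternatives changed 1 choice: scaling by totals or by DESeq2 1.42.0 size factors, pseudocounts of 5 and 0.1 CPM, a 10 CPM limit, no limit, the deposited TPM, and either column alone. Of 179 values of the 10 genes under them, 177 kept their side of the 2-fold limit. Without being called, Vhl for the cytokines and Arnt and Egln2 for age changed sign under some of them, the scaling by totals included, reaching -0.05, 0.05 and 0.01. The exceptions were Vegfa with column 1 alone (log2 ratio 0.996), which left 0 risen members in young TRM against young TCR, and Epas1 with a pseudocount of 5 CPM in aged TRM against young TRM (0.86). In that comparison 0 members rose with a pseudocount of 5 CPM and 0 with the 10 CPM limit, which Epas1 does not reach there. Over the alternatives Epas1 ran from -6.22 to -4.12 for the cytokines and from 0.86 to 2.22 for age, and Vegfa from 0.996 to 1.10 for the cytokines.

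Over all genes, young TRM against young TCR gave 484 risen and 417 fallen, but 296 and 190 with a pseudocount of 5 CPM and 234 fallen with the 10 CPM limit. Aged TRM against young TRM gave 260 and 133, but 87 and 62 with a pseudocount of 5 CPM, 472 and 208 with one of 0.1 CPM, and 123 risen with the 10 CPM limit. A larger pseudocount and a higher limit act by construction on weakly expressed genes. The largest shift that a scaling gave the median of all genes was -0.05 on the log2 scale. No paired analysis was possible because each group is 1 sample.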
